A study of Mus musculus with 6 samples.

Results

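The cells that answer bacterial lipopolysaccharide (LPS) do so through a receptor complex at the membrane and a small set of adaptors and kinases behind it. The 10 genes of this group in the deposited table were taken by symbol: Cd14, Ly96, Myd88, Tirap, Ticam1, Ticam2, Irak1, Irak2, Irak3 and Irak4, out of 21604 gene symbols. All 10 were present and all 10 were expressed well enough to be tested. They were measured by RNA sequencing in RAW 264.7, a mouse macrophage-like line, in 2 groups. The LPS plus PE-CUR group (3 libraries) received LPS at 100 ng/mL together with PE-CUR at 2 mg/mL for 24 h, and the LPS group (3 libraries) received LPS alone at the same dose for 24 h. PE-CUR is the name the labels give the treatment; from the title it is curcumin carried in a Pickering emulsion, whose droplets are stabilised by solid particles. LPS was thus given to both groups, and no LPS-free cells, empty emulsion or free curcumin were analysed here. The labels give the genotype as wild type and call the line's cell type bone marrow macrophage. All cells were of this 1 line, and nothing in the labels says that the libraries of a group came from separate cultures, so p-values measure the spread between these libraries, which may be technical.

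As background, CD14 is a lipid-anchored surface protein that takes up LPS and hands it to the complex of TLR4 and MD-2, the small LPS-binding protein encoded by Ly96. The bridging adaptor TIRAP then brings in MyD88, which assembles IRAK4, IRAK1 and IRAK2 into a signalling platform that leads to NF-kB and MAP kinase activation. After CD14-dependent endocytosis of the receptor, the adaptors TRAM (Ticam2) and TRIF (Ticam1) start a further branch that leads to type I interferon. IRAK3, also called IRAK-M, is known as a brake on this signalling in macrophages.

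Total counts were 28530750 to 35231076 in the LPS plus PE-CUR libraries and 32005736 to 35276533 in the LPS libraries. The Pearson correlation of log2(CPM + 1) across genes (CPM, the count per 1000000 counts of the library) was at least 0.993 within a group and at most 0.966 between the groups. The 10 macrophage markers summed to 7340 to 8420 CPM in the LPS plus PE-CUR libraries and 9460 to 10200 CPM in the LPS libraries. Of these, Lyz2, Csf1r, Cd68, Itgam and Spi1 were abundant in all 6 libraries, Adgre1 was lower (24.8 to 30.9 CPM in LPS plus PE-CUR, 76.9 to 90.5 CPM in LPS), and Mertk stayed under 1 CPM. Transcripts of hepatocytes set the libraries apart: the 8 markers summed to 4.09, 3.86 and 85.3 CPM in LPS plus PE-CUR replicates 1 to 3 and to 72.7 to 88.4 CPM in the LPS libraries, with none of the 8 at 0 throughout. Alb had 1, 0 and 1648 counts in LPS plus PE-CUR replicates 1 to 3 and 1600, 1081 and 1711 counts in LPS replicates 1 to 3. The 4 epithelial markers, at low levels, summed to 3.13, 2.75 and 1.16 CPM in LPS plus PE-CUR replicates 1 to 3. In the LPS libraries they summed to 0.844 to 1.16 CPM. LPS plus PE-CUR replicate 3 thus differed from the other libraries with its label. Replicate 2 of the same group stood apart in collagen genes, with 180, 187 and 57 counts of Col1a1, Col1a2 and Col3a1. Col1a1 had at most 15 counts in any other library. The list of fibroblast and endothelial markers that holds them summed to 14.9 CPM there. That sum was at most 3.72 CPM in the other LPS plus PE-CUR libraries and 4.84 to 5.87 CPM in the LPS libraries. The rest of the list, Pdgfra, Cdh5 and Pecam1, did not set replicate 2 apart (2, 25 and 73 counts). The part of these transcripts in the member values was not tested. Removing the hepatocyte markers cannot show it, since the counts of the members stay as they are. Leaving out 1 library cannot show it either, since hepatocyte transcripts were in every LPS library.

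The members did not move as 1 group. Cd14, Myd88, Tirap, Irak1 and Irak2 were higher in LPS plus PE-CUR, whereas Ly96, Ticam1, Ticam2 and Irak3 were lower, and Irak4 did not pass the test. With the quasi-likelihood test of edgeR over 13014 genes (3 against 3 libraries) and a threshold of 0.05 on the p adjusted by Benjamini-Hochberg, 5 of 10 members were called higher and 4 of 10 lower. Over all genes tested the shares were 30.8% higher and 32.7% lower, 63.4% in all, so a called member is a common outcome in this comparison. The number called lower was 2 when replicate 2 or 3 of LPS plus PE-CUR or replicate 1 or 3 of LPS was left out, since Ticam1 and Irak3 then missed the threshold, and the number called higher was 3 with libraries scaled by size alone. The groups did not overlap in 9 of 10 members, against 69% of all genes tested. The changes were small: a called change of at least 1.5-fold was found for 1 of 10 members, Ly96, against 34.2% of all genes tested, and for at least 2-fold for 0 of 10, against 17.8%. The median size of the log2 fold change was 0.28 among the members and 0.44 among all genes tested, and the median log2 fold change with its sign was -0.02 for the members and -0.03 for all genes. In these bulk libraries, fewer cells that express a gene and less of its RNA per cell cannot be told apart.

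**Figure D1:**
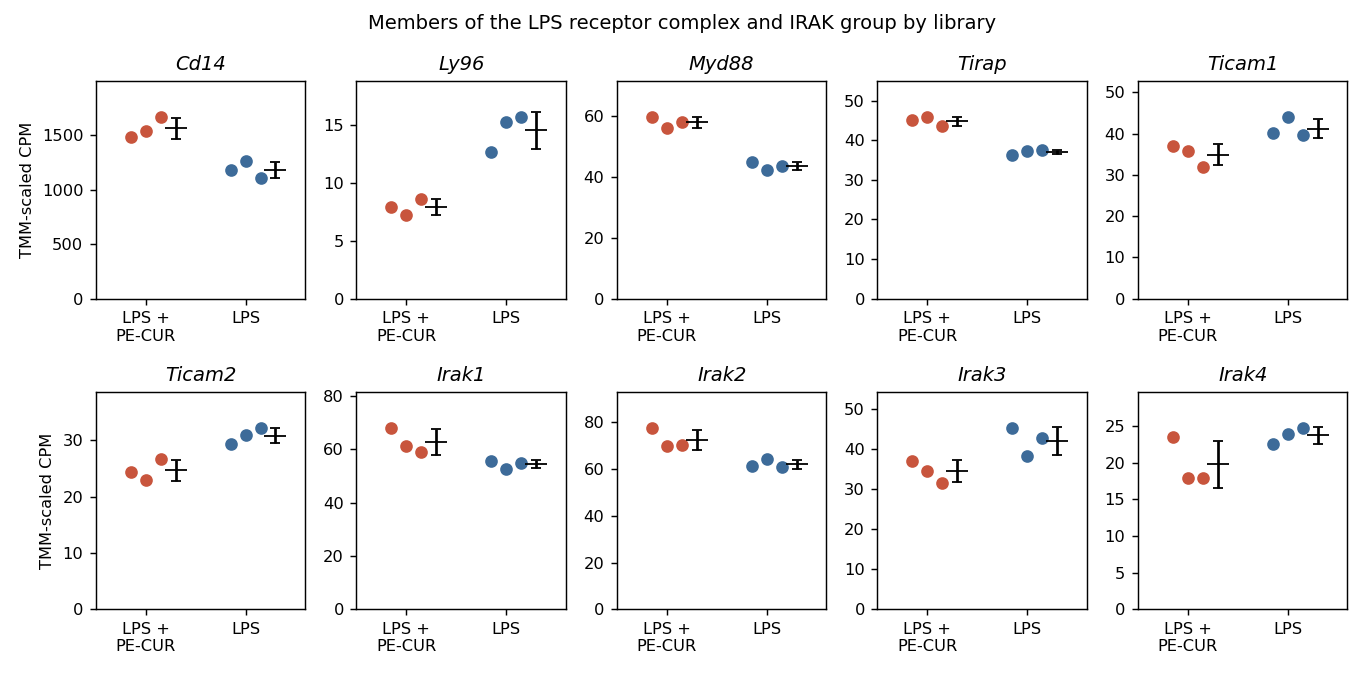
Level of each of the 10 members in each library, as CPM scaled by TMM factors, edgeR's adjustment for library composition (vertical axes, each starting at 0); points are libraries, the bar with caps is the mean ± SD of 3. Irak4 is the member whose groups overlap, because 1 LPS plus PE-CUR library stands at 23.5 CPM.

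The receptor genes moved in opposite directions. Cd14 (chromosome 18, 36725064 to 36726815, build mm10, protein coding) was by far the most abundant member, with 1480, 1536 and 1662 CPM in LPS plus PE-CUR replicates 1 to 3, against 1176, 1258 and 1103 CPM in LPS replicates 1 to 3. Every LPS plus PE-CUR library was above every LPS library. The mean was 1559 ± 93.0 CPM in LPS plus PE-CUR and 1179 ± 77.7 CPM in LPS (SD, n = 3 each), a 1.32-fold rise (log2 fold change 0.40, SE 0.07, edgeR adjusted p = 0.000357). Cd14 was called higher in all 17 alternatives, with log2 fold changes between 0.35 and 0.49. Among all 21604 genes ranked by mean FPKM (a count divided by transcript length and library total), Cd14 stood in place 52 in LPS plus PE-CUR and in place 65 in LPS.

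Ly96 (chromosome 1, 16688456 to 16709605), whose product MD-2 holds the lipid part of LPS in a pocket beside TLR4, changed most of the 10 members. It stood at 7.91, 7.27 and 8.63 CPM in LPS plus PE-CUR replicates 1 to 3, against 12.7, 15.3 and 15.7 CPM in LPS replicates 1 to 3. The highest LPS plus PE-CUR library lay well under the lowest LPS library. The fall was 1.84-fold, to 7.94 ± 0.680 CPM in LPS plus PE-CUR against 14.6 ± 1.64 CPM in LPS (SD, n = 3 each; log2 fold change -0.88, SE 0.12, edgeR adjusted p = 8.98e-05). It was also the least abundant member in counts, with 239 to 257 counts per library in LPS plus PE-CUR and 413 to 568 in LPS. It was called lower in all 17 alternatives, between -0.93 and -0.77.

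Tlr4, the signalling receptor that MD-2 and CD14 serve and itself not among the 10 genes, fell to 64.9, 103 and 84.9 CPM in LPS plus PE-CUR replicates 1 to 3, against 165, 136 and 161 CPM in LPS replicates 1 to 3. Its groups did not overlap, but relative to their mean its LPS plus PE-CUR libraries were spread more widely than those of any member (84.4 ± 19.3 CPM in LPS plus PE-CUR, 154 ± 15.9 CPM in LPS, SD, n = 3 each; log2 fold change -0.87, SE 0.18, edgeR adjusted p = 0.00834). Per length, Ly96 and Tlr4 transcripts stood close to each other in both groups. This closeness rests on the lengths in the deposited values, 603 bases for Ly96 and 8411 bases for Tlr4. The ratio of Ly96 to Tlr4 FPKM was 1.70, 0.981 and 1.42 across LPS plus PE-CUR replicates 1 to 3, against 1.07, 1.57 and 1.36 in LPS replicates 1 to 3, and these values overlapped. The mean log2 ratio was 0.41 in LPS plus PE-CUR and 0.40 in LPS, and the difference of 0.02 changed sign without replicate 1 of LPS plus PE-CUR (-0.16), without its replicate 3 (-0.03) and without replicate 1 of LPS (-0.13) (exact permutation test, two-sided, p = 1). With this spread, a shift in that ratio was not detectable. The ratio of Cd14 to Tlr4 FPKM was 116, 75.2 and 99.1 across LPS plus PE-CUR replicates 1 to 3, against 36.2, 46.9 and 34.6 in LPS replicates 1 to 3. Every LPS plus PE-CUR value was above every LPS value (difference of mean log2 ratios 1.29, exact permutation test, two-sided, p = 0.1, the smallest that 3 against 3 libraries allow, and 0.111 adjusted over the 10 shares and ratios tested). The ratio of Cd14 to Ly96 FPKM averaged 71.5 in LPS plus PE-CUR and 29.7 in LPS, with no overlap (67.9 to 76.7 against 25.5 to 33.7).

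**Figure D2:**
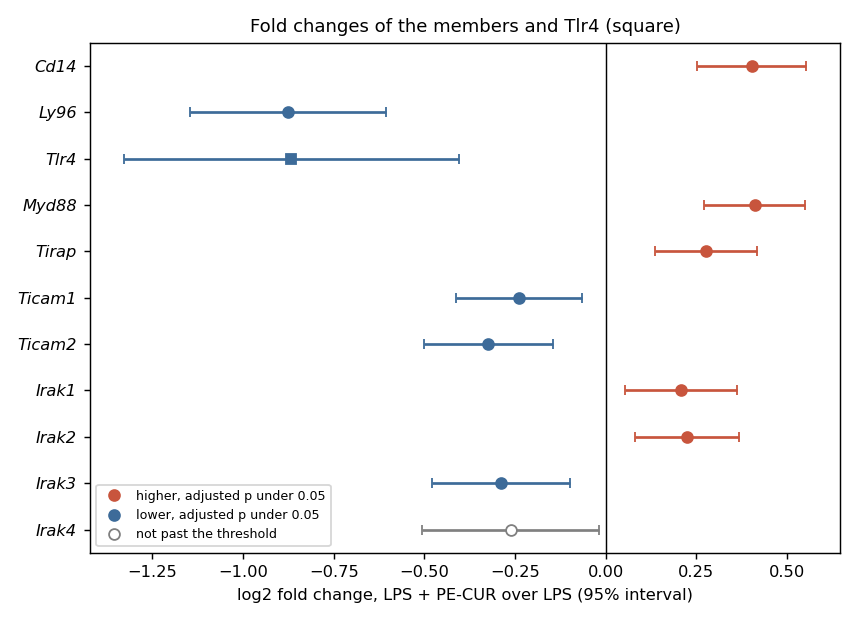
Log2 fold change of each member and of Tlr4 (square), LPS plus PE-CUR over LPS, with its 95% interval from the edgeR fit; filled points are past an adjusted p of 0.05. Ly96 and Tlr4 stand at -0.88 and -0.87, and the other members lie between -0.32 and 0.41.

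In the main fit the adaptors split by branch: both adaptors of the MyD88 branch rose and both adaptors of the TRIF branch fell. The changes were small, and the fall of Ticam1 did not pass in 5 of 6 fits with a library left out. Ticam2 shares exon bases with Tmed7, which also fell, as given below. Myd88 (chromosome 9, 119335934 to 119340018), the adaptor shared by nearly all Toll-like receptors and by the receptors of interleukin 1, 18 and 33, rose about as much as Cd14 (log2 fold changes 0.41 and 0.40), and which of them was higher changed with the library left out. It stood at 59.5, 56.0 and 58.1 CPM in LPS plus PE-CUR replicates 1 to 3, against 44.9, 42.2 and 43.5 CPM in LPS replicates 1 to 3. The libraries of each group lay close together and the groups lay far apart (1.33-fold, log2 fold change 0.41, SE 0.06, edgeR adjusted p = 0.000178). Among all genes tested this fold change is at the 75.6th percentile. Tirap (chromosome 9, 35184391 to 35200291), which tethers MyD88 to the membrane beneath the receptor, stood at 45.1, 45.8 and 43.6 CPM in LPS plus PE-CUR replicates 1 to 3, against 36.4, 37.2 and 37.4 CPM in LPS replicates 1 to 3. It had the smallest spread of all members, with a coefficient of variation of 2.55% in LPS plus PE-CUR and 1.5% in LPS, and rose 1.21-fold without overlap (log2 fold change 0.28, SE 0.06, edgeR adjusted p = 0.00278). Myd88 and Tirap were called higher in all 17 alternatives.

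Ticam2 (chromosome 18, 46558231 to 46574533), which encodes TRAM, the bridge between endocytosed TLR4 and TRIF, was at 24.4, 22.9 and 26.7 CPM in LPS plus PE-CUR replicates 1 to 3, against 29.4, 31.0 and 32.2 CPM in LPS replicates 1 to 3. The groups did not overlap, and the 1.25-fold fall passed in all 17 alternatives (log2 fold change -0.32, SE 0.08, edgeR adjusted p = 0.00472). Ticam1 (chromosome 17, 56269462 to 56276767), which encodes TRIF, was at 36.9, 35.8 and 32.0 CPM in LPS plus PE-CUR replicates 1 to 3, against 40.1, 44.0 and 39.7 CPM in LPS replicates 1 to 3. Here too the groups did not overlap, but the gap was narrow, and the fall was 1.18-fold (log2 fold change -0.24, SE 0.08, edgeR adjusted p = 0.0204). That call ended when LPS plus PE-CUR replicate 2 or 3 was left out (log2 fold change -0.22 and -0.16, edgeR adjusted p = 0.0692 and 0.125) and when LPS replicate 1, 2 or 3 was left out (-0.22, -0.15 and -0.23, edgeR adjusted p = 0.064, 0.166 and 0.0593).

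The share of each gene in the summed FPKM of the 4 adaptors shows the same split within a library. This share does not depend on how libraries are scaled to each other, but it rests on the same counts and is no separate support. Myd88 made up 50.8%, 49.9% and 51.4% of the sum in LPS plus PE-CUR replicates 1 to 3, against 43.1%, 40.0% and 41.6% in LPS replicates 1 to 3. Ticam1 held 20.9 ± 1.36% in LPS plus PE-CUR and 26.9 ± 1.39% in LPS, and Ticam2 held 12.8 ± 1.02% and 17.5 ± 0.768% in LPS plus PE-CUR and LPS (SD, n = 3 each). Tirap held 15.6 ± 0.519% in LPS plus PE-CUR and 14.1 ± 0.178% in LPS. None of the 4 shares overlapped between the groups, and each had an exact permutation p = 0.1 (two-sided, the smallest possible here; 0.111 adjusted over the 10 shares and ratios). Such shares are tied to each other, since a gain of Myd88 lowers the shares of the rest.

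**Figure D3:**
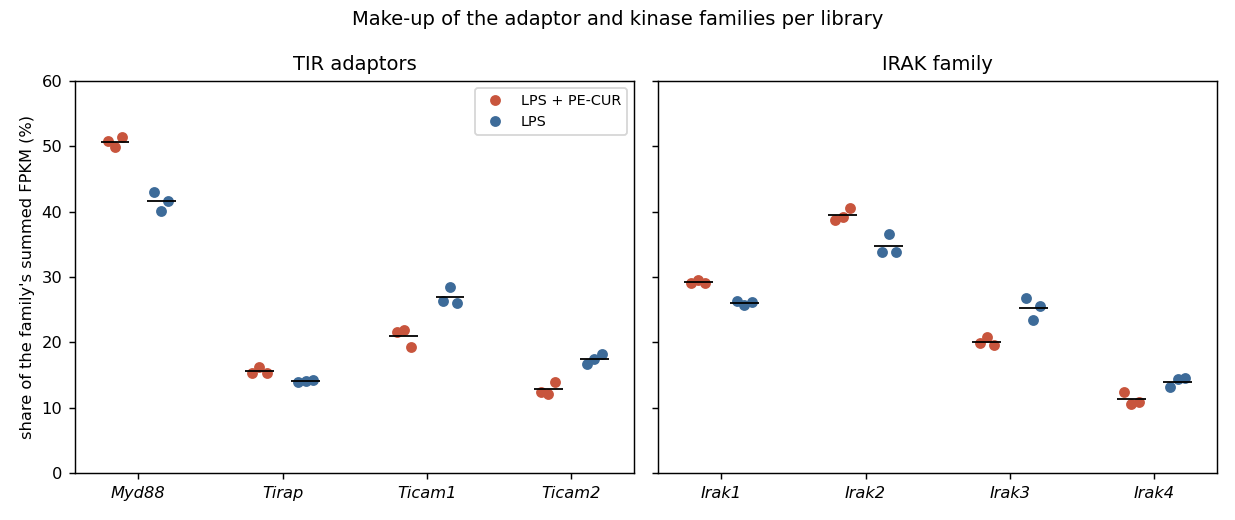
Share of each gene in the summed FPKM of its family per library (vertical axis, percent, from 0), for the 4 adaptors and the 4 IRAKs; points are libraries and lines are group means. Myd88, Tirap, Irak1 and Irak2 hold larger shares in LPS plus PE-CUR, and Ticam1, Ticam2, Irak3 and Irak4 smaller ones, with no overlap in any of the 8 genes.

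Promoter sequences are shown for Myd88 and Ticam1, the adaptors after which the branches are named, because they moved in opposite directions. The promoter of Ticam2, which fell more than Ticam1, was not read. Each is 300 bases of RefSeq sequence (GRCm38.p6, the assembly of mm10), from 250 bases before to 50 bases after the start of the gene, on the gene's own minus strand, at chr9:119339969-119340268 for Myd88 and chr17:56276718-56277017 for Ticam1. Capitals mark a match to 1 of 4 motifs searched on both strands (the letters of AP-1 and of the antioxidant element can fall on the same bases): the interferon-stimulated response element as GAAA, 2 bases of any kind and GAAA, NF-kB as GGGA, 2 bases of any kind and TTCC, AP-1 as TGANTCA and the antioxidant response element as TGACNNNGC.
Myd88: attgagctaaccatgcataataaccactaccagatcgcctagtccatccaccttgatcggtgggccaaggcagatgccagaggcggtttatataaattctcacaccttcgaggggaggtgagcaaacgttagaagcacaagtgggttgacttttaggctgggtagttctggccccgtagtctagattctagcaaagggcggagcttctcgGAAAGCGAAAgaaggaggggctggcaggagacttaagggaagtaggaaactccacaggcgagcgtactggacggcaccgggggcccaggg
Ticam1: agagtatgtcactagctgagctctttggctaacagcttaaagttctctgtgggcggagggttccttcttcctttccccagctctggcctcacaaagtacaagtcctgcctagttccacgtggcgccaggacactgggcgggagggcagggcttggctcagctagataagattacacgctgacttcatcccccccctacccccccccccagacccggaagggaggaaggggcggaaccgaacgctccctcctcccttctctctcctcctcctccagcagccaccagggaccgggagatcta
The Myd88 window holds 1 match, GAAAGCGAAA, to the interferon element, which 3.44% of 32851 promoters of the same length hold, and the Ticam1 window holds none of the 4 motifs. Of 10 members, 7 had a promoter entry that was read. In the others of these, matches were found only to the antioxidant element, in Irak2 and in Irak4, which 12.4% of all promoters hold, and no match to the NF-kB letters (1.47% of all promoters) or the AP-1 letters (7.81%) was found. A match is a description of the sequence, and the absence of one says only that these letters are not in the window.

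The kinases of the group also went both ways. Irak1 (chromosome X, 74013914 to 74023921), the kinase that passes the signal on to TRAF6, stood at 67.9, 61.3 and 58.8 CPM in LPS plus PE-CUR replicates 1 to 3, against 55.6, 52.7 and 54.8 CPM in LPS replicates 1 to 3. Irak2 (chromosome 6, 113638467 to 113695026), known to sustain the late part of the response, stood at 77.6, 69.8 and 70.3 CPM in LPS plus PE-CUR replicates 1 to 3, against 61.3, 64.2 and 60.7 CPM in LPS replicates 1 to 3. In both genes the groups did not overlap and LPS plus PE-CUR replicate 1 was the highest library. Irak1 rose 1.15-fold (log2 fold change 0.21, SE 0.07, edgeR adjusted p = 0.0235) and Irak2 1.17-fold (log2 fold change 0.22, SE 0.07, edgeR adjusted p = 0.0110). Neither call depended on a single library, but both ended with libraries scaled by size alone (edgeR adjusted p = 0.114 for Irak1 and 0.062 for Irak2) and on log2(FPKM + 1) or log2(FPKM + 0.1) (limma adjusted p = 0.139 and 0.136 for Irak1, 0.0725 and 0.0707 for Irak2).

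Irak3 (chromosome 10, 120141648 to 120202130), the brake of the family, was at 37.1, 34.5 and 31.6 CPM in LPS plus PE-CUR replicates 1 to 3, against 45.2, 38.3 and 42.6 CPM in LPS replicates 1 to 3. The groups came close without overlapping, and the fall was 1.22-fold (log2 fold change -0.29, SE 0.09, edgeR adjusted p = 0.0124). This call ended without LPS plus PE-CUR replicate 2 or 3 (log2 fold change -0.25 and -0.21, edgeR adjusted p = 0.0524 and 0.0808) and without LPS replicate 1 or 3 (-0.20 and -0.24, edgeR adjusted p = 0.1 and 0.0673). Irak4 (chromosome 15, 94543613 to 94568317), the kinase that MyD88 binds directly, was at 23.5, 17.9 and 18.0 CPM in LPS plus PE-CUR replicates 1 to 3, against 22.5, 23.9 and 24.7 CPM in LPS replicates 1 to 3. In this gene LPS plus PE-CUR replicate 1 lay within the LPS libraries while replicates 2 and 3 lay below them. The log2 fold change was -0.26 (95% interval -0.51 to -0.02, edgeR adjusted p = 0.0586), and without LPS plus PE-CUR replicate 1 it was -0.38 and passed (edgeR adjusted p = 0.00209).

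Within the family, Irak2 transcripts made up the largest share per length and Irak4 transcripts the smallest in every library. Irak2 held 38.7%, 39.2% and 40.5% of the summed IRAK FPKM in LPS plus PE-CUR replicates 1 to 3, against 33.9%, 36.6% and 33.8% in LPS replicates 1 to 3. Irak3 held 19.9%, 20.8% and 19.5% across LPS plus PE-CUR replicates 1 to 3, against 26.8%, 23.4% and 25.5% in LPS replicates 1 to 3. Irak1 held 29.2 ± 0.249% in LPS plus PE-CUR and 26.1 ± 0.304% in LPS, and Irak4 held 11.3 ± 0.948% and 14.0 ± 0.769% in LPS plus PE-CUR and LPS (SD, n = 3 each). As for the adaptors, none of the 4 shares overlapped between the groups (exact permutation p = 0.1 each, two-sided, 0.111 adjusted). The order Irak2, Irak1, Irak3, Irak4 of the mean levels held in both groups, although Irak1 and Irak3 overlapped in their FPKM in LPS.

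**Figure D4:**
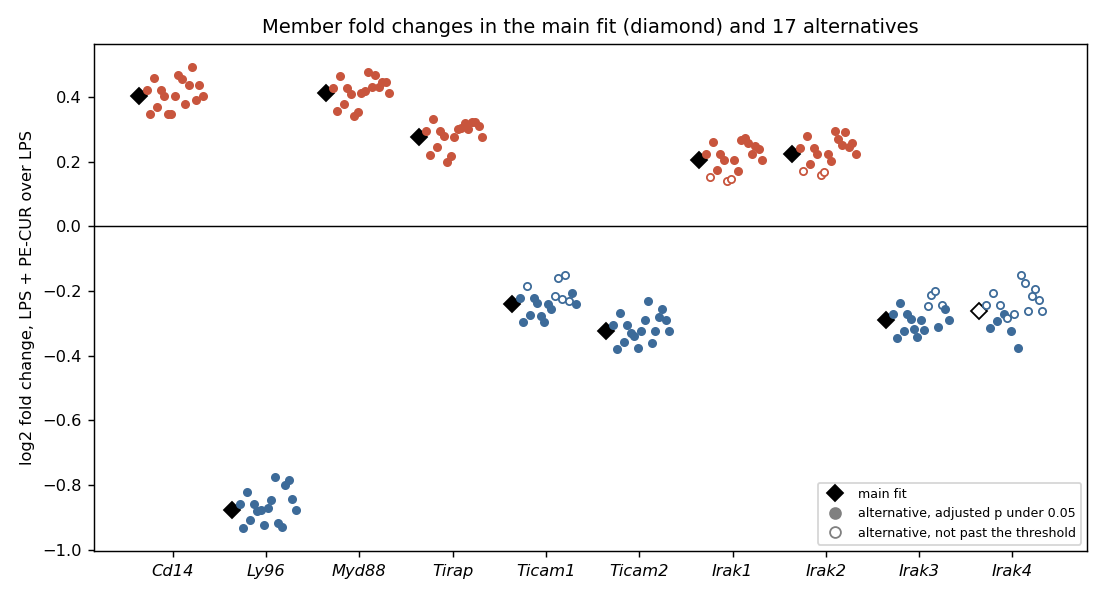
Log2 fold change of each member, LPS plus PE-CUR over LPS, in the main fit (diamond) and in 17 alternatives (circles); filled symbols are past an adjusted p of 0.05. No member changes sign, and Cd14, Ly96, Myd88, Tirap and Ticam2 are filled throughout.

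Per length, the order of the members differed between the groups mainly through Ly96. In LPS plus PE-CUR the mean FPKM were 920 for Cd14, 29.3 for Myd88, 21.0 for Irak2, 15.6 for Irak1, 12.9 for Ly96, 12.1 for Ticam1, 10.7 for Irak3, 9.03 for Tirap, 7.41 for Ticam2 and 6.03 for Irak4. In LPS they were 723 for Cd14, 24.6 for Ly96, 22.9 for Myd88, 18.7 for Irak2, 14.8 for Ticam1, 14.0 for Irak1, 13.6 for Irak3, 9.63 for Ticam2, 7.74 for Tirap and 7.50 for Irak4. In LPS plus PE-CUR, Cd14, Myd88, Irak2 and Irak1 were each separated from the next gene in every library, whereas Ly96 overlapped Ticam1, Ticam1 overlapped Irak3, and Ticam2 overlapped Irak4. In LPS, Ly96 overlapped Myd88, Irak1 overlapped Irak3, and Tirap overlapped Irak4. These levels rest on 1 length per gene, which the deposited values put at 603 bases for Ly96 and 4868 bases for Tirap, so an error in a length moves a gene in the order but leaves its fold change as it is.

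Some members share exon bases with other genes of the GENCODE M21 annotation, and the sources used here do not say whether counting used strand. Irak3 shares 192 exon bases with Tmbim4 on the opposite strand, which fell to 32.1 CPM in LPS plus PE-CUR, against 58.2 CPM in LPS (log2 fold change -0.86, edgeR adjusted p = 1.82e-06). Irak4 shares 395 bases with Twf1 on the opposite strand, which was also lower (70.9 CPM in LPS plus PE-CUR, 86.4 CPM in LPS, edgeR adjusted p = 0.00929). Ticam2 shares 838 bases with Tmed7 on the same strand, which fell to 196 CPM in LPS plus PE-CUR, against 235 CPM in LPS (edgeR adjusted p = 0.0024). Myd88 shares 290 bases with Acaa1a on the opposite strand, which stood at 59.7 CPM in LPS plus PE-CUR and 56.2 CPM in LPS and did not pass (edgeR adjusted p = 0.443). Tirap shares 446 bases with Gm39318, which was under 1 CPM in every library, and 39 bases with Srpr, both on the opposite strand. Cd14, Ly96 and Ticam1 overlap no other annotated gene, and the part of shared reads in the other members was not tested.

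The genes around the members were read from 6 lists, in which 74 genes were tested: 24 were called higher, 24 lower and 26 did not pass, beside 30.8% higher and 32.7% lower of all genes tested. The median log2 fold change over the 74 genes was -0.03, as over all genes, and each gene said here to have risen or fallen passed the edgeR threshold. Of 11 tested genes of LPS recognition and TLR4 delivery, 2 rose, 3 fell (Tlr4 among them) and 6 did not pass (median -0.06 on the log2 scale). The number that rose was 4 without LPS plus PE-CUR replicate 1 and with no filter on low counts. Ly86, which encodes MD-1, the relative of MD-2 that pairs with the TLR4-like receptor CD180, rose to 103 ± 3.17 CPM in LPS plus PE-CUR, against 22.5 ± 2.32 CPM in LPS (log2 fold change 2.20, SE 0.08, edgeR adjusted p = 2.53e-08). Thus the genes of these 2 related proteins moved in opposite directions, Ly86 upward and Ly96 downward. Cd180 itself stood at 83.0, 98.7 and 110 CPM in LPS plus PE-CUR replicates 1 to 3, against 81.0, 96.0 and 83.4 CPM in LPS replicates 1 to 3, and did not pass (edgeR adjusted p = 0.217). Cnpy3, a chaperone that Toll-like receptors need to reach their membranes, rose to 40.9 CPM in LPS plus PE-CUR, against 32.6 CPM in LPS. Itgam, which encodes the integrin subunit CD11b, fell to 627 CPM in LPS plus PE-CUR, against 753 CPM in LPS, and the scavenger receptor gene Cd36 fell to 6.02 CPM in LPS plus PE-CUR, against 16.2 CPM in LPS. Lbp, the serum protein that loads LPS onto CD14, had at most 3 counts in any library and was not tested.

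Of 7 genes tied to endocytosis of TLR4, 1 rose, 3 fell and 3 did not pass (median log2 fold change 0.05); the number that rose was 2 without LPS plus PE-CUR replicate 2 and after removal of mitochondrial and the 10 most abundant genes. Syk, a kinase reported to act in CD14-dependent uptake of TLR4, fell to 170 CPM in LPS plus PE-CUR, against 244 CPM in LPS (log2 fold change -0.52, edgeR adjusted p = 3.71e-05). Rab11a, a GTPase of recycling endosomes, fell to 141 CPM in LPS plus PE-CUR, against 190 CPM in LPS (log2 fold change -0.43, edgeR adjusted p = 3.41e-05), and Tmed7, the neighbour of Ticam2 described above, fell too. Pik3cd, the catalytic subunit p110-delta of a lipid kinase, rose to 69.8 CPM in LPS plus PE-CUR, against 39.7 CPM in LPS (log2 fold change 0.81, edgeR adjusted p = 1.80e-05).

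Below the branch point, members of both branches again went both ways. Of 16 tested genes below MyD88 and the IRAKs, 7 rose, 5 fell and 4 did not pass (median 0.10); the number that fell was 2 without LPS replicate 1 and 3 without LPS replicate 3 or with the replicate number as a block. Ube2n, the enzyme with which TRAF6 builds its ubiquitin chains, rose to 96.5 CPM in LPS plus PE-CUR, against 63.5 CPM in LPS, and Map3k7, which encodes the kinase TAK1, rose to 116 CPM in LPS plus PE-CUR, against 86.8 CPM in LPS. Nfkb1 rose to 180 CPM in LPS plus PE-CUR, against 130 CPM in LPS, while Rela, its usual partner in NF-kB, fell to 42.0 CPM in LPS plus PE-CUR, against 54.4 CPM in LPS. Tab2, which links TAK1 to ubiquitin chains, fell to 142 CPM in LPS plus PE-CUR, against 193 CPM in LPS. Of 13 tested genes below TRIF, 3 rose, 5 fell and 5 did not pass (median -0.07). Ikbke, a kinase of the interferon branch, rose to 62.4 ± 3.89 CPM in LPS plus PE-CUR, against 12.2 ± 1.22 CPM in LPS (log2 fold change 2.35, SE 0.09, edgeR adjusted p = 2.91e-08). Irf7, the interferon-induced transcription factor, rose to 322 ± 13.5 CPM in LPS plus PE-CUR, against 86.3 ± 14.5 CPM in LPS (log2 fold change 1.90, SE 0.11, edgeR adjusted p = 2.20e-06). These rises stood beside lower levels of the adaptors Ticam1 and Ticam2 and of Casp8, Ripk1 and Ripk3, the cell death arm of the branch (log2 fold changes -0.63, -0.47 and -0.41, edgeR adjusted p = 0.000167, 0.000178 and 0.000223).

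Of 16 tested brakes on the pathway other than Irak3, 7 rose, 4 fell and 5 did not pass (median 0.12). The number that fell was 2 without LPS replicate 2. Il1rl1 is counted among the risen brakes and again among the risen receptors below. The largest rise was that of Ptpn6, which encodes the phosphatase SHP-1, to 439 ± 20.1 CPM in LPS plus PE-CUR, against 153 ± 4.63 CPM in LPS (log2 fold change 1.52, edgeR adjusted p = 2.53e-08). Tnip3, an A20-binding inhibitor, rose to 51.2 CPM in LPS plus PE-CUR, against 21.6 CPM in LPS, and Zc3h12a, which encodes an RNase that degrades cytokine mRNA, rose to 43.6 CPM in LPS plus PE-CUR, against 29.4 CPM in LPS. Tollip, which binds IRAK1 and holds it back, fell to 87.4 ± 7.25 CPM in LPS plus PE-CUR, against 161 ± 6.94 CPM in LPS (log2 fold change -0.88, edgeR adjusted p = 1.47e-06). Dusp1, a phosphatase of MAP kinases, had 13.7 ± 0.231 CPM in LPS plus PE-CUR and 117 ± 11.3 CPM in LPS (log2 fold change -3.09, edgeR adjusted p = 4.57e-09). The brakes thus lay on both sides of the 1.22-fold fall of Irak3.

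Of 12 tested receptors that also signal through MyD88, TRIF or the IRAKs, 5 rose, 4 fell and 3 did not pass (median 0.12), and 2 fell when only genes with a mean of at least 1 CPM were kept. Tlr1, Tlr2 and Tlr13, which sense bacterial lipopeptides and ribosomal RNA, rose (log2 fold changes 0.76, 0.26 and 0.61, edgeR adjusted p = 1.76e-05, 0.00176 and 1.47e-05). Tlr7 rose too (0.66, edgeR adjusted p = 0.00728). In contrast, Tlr9 and Tlr8 fell (log2 fold changes -0.64 and -1.57, edgeR adjusted p = 0.000332 and 0.0108), with at most 28 counts of Tlr8 in any library. Tlr3 and Tlr6 did not pass (edgeR adjusted p = 0.845 and 0.173). Genes of the interleukin 1 receptor family went both ways. Il1rl1, which encodes the receptor of interleukin 33, rose to 49.8 CPM in LPS plus PE-CUR, against 41.1 CPM in LPS (edgeR adjusted p = 0.00598), and Il18rap, a chain of the interleukin 18 receptor, did not pass (61.4 CPM in LPS plus PE-CUR, 57.8 CPM in LPS, edgeR adjusted p = 0.65). Il1rap, the accessory chain, had 17.4 CPM in LPS plus PE-CUR and 26.5 CPM in LPS (edgeR adjusted p = 0.00017), and Il1r1 had 2, 4 and 2 counts in LPS plus PE-CUR replicates 1 to 3 and 65, 41 and 79 counts in LPS replicates 1 to 3 (edgeR adjusted p = 8.83e-06). Il1r1 thus lay close to the limit of detection in LPS plus PE-CUR, and no fold change is given for it.

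**Figure D5:**
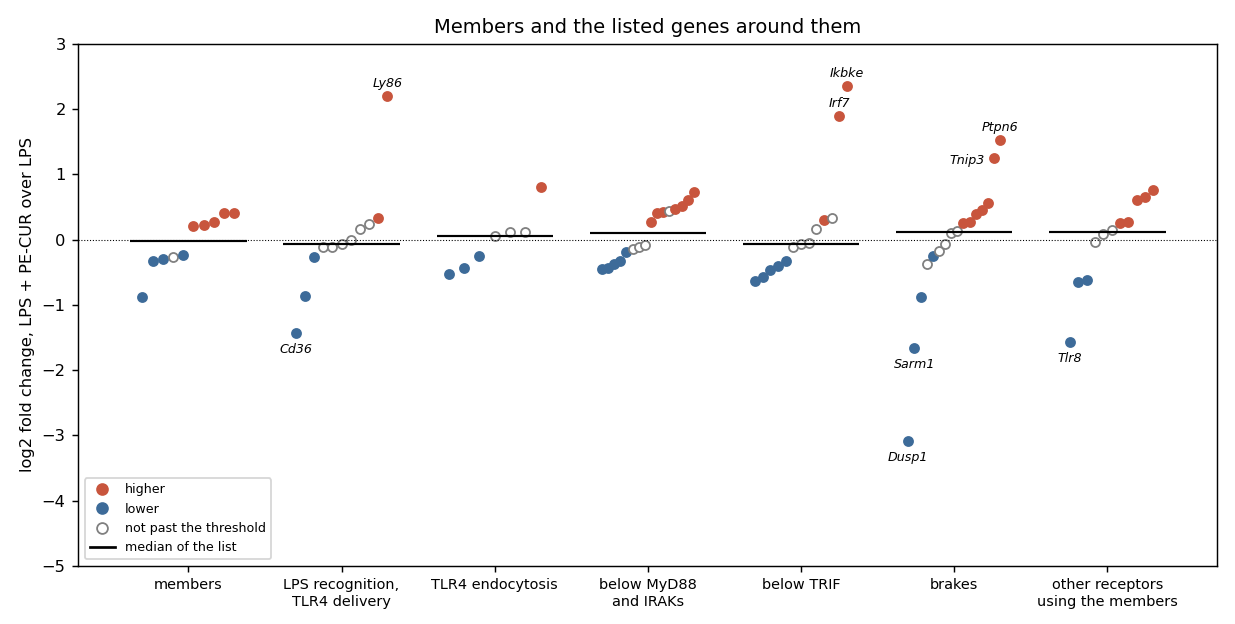
Log2 fold change, LPS plus PE-CUR over LPS, of the 10 members and of the tested genes in each of the 6 lists; filled points are past an adjusted p of 0.05, lines are medians over all tested genes of the list and genes beyond 2-fold are named. The members lie between -0.88 and 0.41, while Ly86, Ikbke and Irf7 lie above 1.8 and Dusp1 below -3; Il1r1, at 2 to 4 counts in the LPS plus PE-CUR libraries, is not drawn.

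For Ly96 and for Myd88, which had the largest fitted rise by a margin over Cd14 smaller than the SE of either, the genes with the most similar pattern over the 6 libraries were ranked among 9553 genes with a mean of at least 5 CPM (Pearson correlation of log2 CPM, a description only, since the 6 points fall into 2 groups). Those closest to Myd88 were Gne, Lig3 and Nepro (r = 0.9991, 0.9985 and 0.9985), and those closest to Ly96 were Lamtor4, Mfsd1 and Rnf41 (r = 0.9984, 0.9978 and 0.9978). With a difference between the groups this wide, 1745 genes had r over 0.95 with Myd88 and 1403 with Ly96, so these 6 names stand out little from many others.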

How the data were processed

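Total RNA of 6 samples of RAW 264.7 cells was, per the labels' protocols, extracted with TRIzol and made into libraries (VAHTS Universal V6 kit). The submitters' processing notes name build mm10 and the tools DESeq2, fastp, HTSeq and SAMtools; the sources used here do not give the aligner, annotation, strand setting or versions. The authors deposited whole-number counts per gene symbol and FPKM values. The deposited FPKM values equal count over length and library total with 1 length per gene in 100% of 19208 genes with a count in at least 2 libraries (relative tolerance 0.0001), so they are a rescaling of the counts.

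The counts were tested with edgeR 4.0.16 under R 4.3.3: filterByExpr, which kept 13014 genes, TMM factors (0.964 to 1.03), robust dispersions and a two-sided quasi-likelihood test with the group as only term, adjusted by the Benjamini-Hochberg method over all genes tested. Each fold change sets LPS plus PE-CUR over LPS. SE is the fold change over the root of F. CPM are TMM-scaled, except in sums of markers. FPKM was used to compare genes, with exact permutation tests of shares and ratios. Alternatives used limma 3.58.1 and DESeq2 1.42.0 and are named in the closing section. Coordinates, counted from 1, are RefSeq's for GRCm38.p6.

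The members and lists were chosen with earlier results of these data known. Named genes are all members and Tlr4, up to 3 called genes by smallest p in each list's majority direction and 2 in the other, and the 3 nearest in pattern. Genes that share exons with a member, Cd180, Lbp, Il1rl1, Il18rap, Tlr3, Tlr6, Tlr7, Tlr8, Tlr9 and the markers are given beside them.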

Additional observations from a re-analysis of the deposited data

How the results depend on the processing

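Over 17 alternatives (other scalings and filters, limma-voom, DESeq2, both FPKM fits, the replicate block, each library left out and the hepatocyte markers removed), 149 of 170 member fold changes kept their direction and their side of the threshold, 16 lost and 5 gained a call, and 0 changed sign. Of 204 counts in the lists, 195 stayed within 1.5 times and 9 did not. The 29 genes named by rule from the lists, Tlr4 among them, kept direction and side of the threshold in all 492 fold changes. Other genes named beside them were not followed through the alternatives. Members called higher numbered 3 with libraries scaled by size alone and in both FPKM fits. Irak1 then stood at 0.15 (size alone), 0.14 (log2(FPKM + 1)) and 0.15 (log2(FPKM + 0.1)), and Irak2 at 0.17, 0.16 and 0.17. Ticam1 stood at -0.19 without a filter and lost its call. Irak4 gained one by size alone (-0.31), at a mean of at least 1 CPM (-0.29), by limma-voom (-0.27) and on log2(FPKM + 0.1) (-0.32). With each library left out in turn, members called lower numbered 2 to 5 (2 without replicate 2 or 3 of LPS plus PE-CUR or replicate 1 or 3 of LPS), Ticam1 lay between -0.25 and -0.15, Irak3 between -0.32 and -0.20, Irak4 between -0.38 and -0.15 and the difference in log2 Ly96 over Tlr4 between -0.16 and 0.24. That difference turned to -0.16, -0.03 and -0.13 without LPS plus PE-CUR replicate 1, LPS plus PE-CUR replicate 3 and LPS replicate 1. The cause of these shifts was not tested. Samples with the same number did not deviate together (correlations -0.102, -0.178 and -0.048; 0 of 6 libraries were closest to their own number). With the replicate number as a block, 3708 genes were called higher and 3953 lower, against 4004 and 4252 without it, and 5 members were called higher and 4 lower, as without it. Removing hepatocyte markers, an alternative chosen after seeing the data, changed no member's call. It leaves the counts of the members as they are, so the part of hepatocyte transcripts in them was not tested. Ly96, at 239 to 568 counts, is the member with the fewest counts.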
